A study of Mus musculus with 37 samples.

Results

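The p53 target genes examined here are 35 listed symbols, chosen by name as genes that p53 is known to switch on, with p53 itself (Trp53) among them. Of these, 34 were rows of the deposited count table, which holds 24421 symbols, and all 34 passed the filter on low counts that left 16977 genes for testing. Tap63 is not analysed here. RNA was sequenced from the lungs of 37 C57BL/6 mice, 1 library per mouse, 22 labelled male and 15 female. All irradiated mice received 0.75 Gy and all mock mice 0 Gy. The silicon + NR group (6 mice, 4 male and 2 female) received a beam of silicon ions at 300 MeV per nucleon. It was given nicotinamide riboside (NR), a vitamin B3 form used to build NAD, at 12 mM in the drinking water, begun ahead of irradiation. The silicon group (7 mice, 3 male and 4 female) received the same ions without NR. The GCR group (7 mice, 3 male and 4 female) received a reduced simulation of galactic cosmic radiation built from 5 ion species, without NR. The gamma group (5 mice, 3 male and 2 female) received caesium gamma rays without NR. The mock + NR group (5 mice, 4 male and 1 female) and the mock group (7 mice, 5 male and 2 female) were sham exposed, with and without NR. Neither the age of the mice nor the interval from exposure to tissue collection is stated in the labels.

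The protein p53 is a transcription factor that is held at a low level by Mdm2, a ubiquitin ligase that marks it for destruction. DNA damage, including that from ionizing radiation, frees p53 from Mdm2, and p53 then binds a specific DNA element and switches on genes that halt the cell cycle (Cdkn1a, which encodes p21), start apoptosis (Bax, Bbc3, Pmaip1), repair DNA (Xpc, Ddb2, Rrm2b) and limit p53 itself (Mdm2, Ppm1d). The response in an irradiated tissue is known to be strongest in the first hours and to fade as damage is repaired. In lung, alveolar and airway epithelium, endothelium and resident leukocytes all carry the pathway, and a whole-lung library averages over them, so fewer cells of a type and less RNA per cell cannot be told apart.

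The promoter sequences were searched for matches to the p53 element, or to a single part of it, near the gene start. The element consists of a pair of decamers, and the decamer searched was 3 purines, C, 2 bases that are A or T, G and 3 pyrimidines, a motif that reads the same on both strands. Windows of 250 bases before to 50 bases after each gene's start came from RefSeq on GRCm38.p6, where 26 members matched with 36 windows. The decamer was found in 11 of the 36 windows (30.6%), belonging to 10 genes, against 8.36% of all 32851 windows of that length. A pair of decamers with at most 13 bases between them was found in 1 member window, that of Cdkn1a, which is 2.78% of the members' windows and against 0.0731% of all windows. The windows shown are those of members on which the results below turn, each 5′ to 3′ on the gene's own strand. Capitals mark the decamer, and in Cdkn1a both decamers with the 12 bases between them. No mismatch was allowed, and in Cdkn1a the lower-case bases right after the capitals differ from the decamer in their first base only. The capitals there need not mark the pair that p53 binds. The positions are chr17:29090896-29090947 (plus strand) for Cdkn1a, chr10:117710925-117710954 (minus strand) for Mdm2, chr11:40755452-40755481 (minus strand) for Ccng1, chr7:78895927-78895956 (plus strand) for Aen, chr7:45467080-45467109 (minus strand) for Bax and chr11:69580274-69580303 (plus strand) for Trp53.
Cdkn1a: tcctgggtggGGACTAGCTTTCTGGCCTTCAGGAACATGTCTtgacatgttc
Mdm2: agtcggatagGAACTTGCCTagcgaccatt
Ccng1: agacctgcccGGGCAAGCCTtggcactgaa
Aen: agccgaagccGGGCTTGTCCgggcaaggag
Bax: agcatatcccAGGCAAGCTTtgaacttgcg
Trp53: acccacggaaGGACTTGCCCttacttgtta
The same decamer was found in windows of Ei24, Sesn1, Ppm1d and Polk. A match is a run of letters and not a shown binding site, and known p53 elements of several members, such as that of Mdm2, lie in introns outside these windows.

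Library totals ran from 9485197 to 66381526 counts with a median of 28476462. Levels are given as counts per 1000000 (CPM) of the library total. Some libraries stood apart by their tissue content. Acta1, the skeletal muscle actin, exceeded 1000 CPM in 13 libraries: 2 silicon + NR, 5 silicon, 2 mock + NR and 4 mock libraries, and in no GCR or gamma library. The summed level of 8 skeletal muscle markers ran from 38.7 to 50200 CPM in silicon + NR, 101.1 to 64770 in silicon, 33.9 to 96.7 in GCR, 17.9 to 146 in gamma, 16.7 to 49700 in mock + NR and 19.9 to 39810 in mock. Of those markers Pvalb was at 0 in 1 library and the other 7 were above 0 in all. Rn45s, the ribosomal RNA precursor, exceeded 100000 CPM in GCR replicates 2, 5 and 6 and in mock replicate 4. Ccl19, a lymphoid tissue chemokine, exceeded 100 CPM in silicon replicates 3 and 6 and mock + NR replicate 4, and the atrial gene Nppa exceeded 10000 CPM in gamma replicates 3 and 4. The 6 lung epithelium markers were above 0 in every library, with a summed level of 31450 to 311500 CPM. Most of that sum was Scgb1a1, at 25010 to 301100 CPM. Of the others, Sftpc ran from 307 to 36040 CPM and Ager from 36.9 to 2391 CPM. Gamma replicate 5, labelled female, went against that label, with Xist at 3.73 CPM and the Y-linked gene Ddx3y at 87.6 CPM, and was kept under it.

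The members differed widely in level. Per kilobase of exon, the highest median over the 37 libraries was that of Dcxr, a carbonyl reductase, at 162 CPM per kilobase, ahead of the antiproliferative gene Btg2 at 60.5, Bax at 37.9 and cyclin G1 (Ccng1) at 34.8. The lowest were the death receptors Tnfrsf10b at 0.576 and Eda2r at 0.571 CPM per kilobase. In CPM without regard to length, 8 members had a median under 10, 23 were between 10 and 100, and 3 were over 100. The spread between the highest and lowest library was least for the phosphatase gene Ppm1d, at 2.04-fold, and greatest for the apoptosis-enhancing nuclease gene Aen, at 44.9-fold. For 11 members, Cdkn1a and Bax among them, the annotation places another gene over the same stretch, and reads of the pair cannot be told apart without strand.

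Several of the best-known p53 targets differed in level between the libraries rich in Acta1 and the others. Ccng1 had a median of 538 CPM in the 13 libraries rich in Acta1 and 91.8 CPM in the other 24, and 9 of the 13 lay above all 24. Eda2r, which encodes a receptor of the ectodysplasin family, had medians of 8.24 and 2.60 CPM in the same libraries, with 12 of the 13 above all 24. The junction gene Perp had medians of 146 and 50.03 CPM, Phlda3, a repressor of Akt, 124 and 44.0, and Cdkn1a 191 and 81.1. These 5 members were more than 2 times as high in the muscle-rich libraries, and Dcxr was under 0.5 of its level elsewhere, at 113 CPM against 252 CPM. Among mock mice alone the groups of libraries separated for only some of the 5. The 4 muscle-rich libraries held 130 to 538 CPM of Ccng1 and the other 3 mock libraries 84.7 to 106.2, and Eda2r held 4.11 to 8.09 and 2.35 to 2.81 CPM. Perp, too, was higher in all 4, at 55.1 to 150 and 37.9 to 53.4 CPM. Of the muscle-rich mock libraries, 1 lay above the other 3 for Cdkn1a, with a ratio of medians of 1.36, and for Phlda3 3 lay above and 1 below them, with a ratio of 1.95. In silicon the 5 muscle-rich libraries held 171 to 212 CPM of Cdkn1a and 89.3 to 135 of Phlda3. The other 2 held 83.9 to 90.25 and 44.8 to 49.2 CPM. Both genes also separated fully in silicon + NR and mock + NR, with 2 muscle-rich libraries each. Perp separated fully in silicon + NR but not in silicon or mock + NR. These values are descriptions of libraries set apart by Acta1, without a test, and the share of all genes that differed as much was not counted. In GCR against mock, 7 squamous epithelium markers were lower along with the 8 muscle markers (median log2 fold changes -6.94 and -7.96). Which tissue the members' values follow was not tested.

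**Figure D1:**
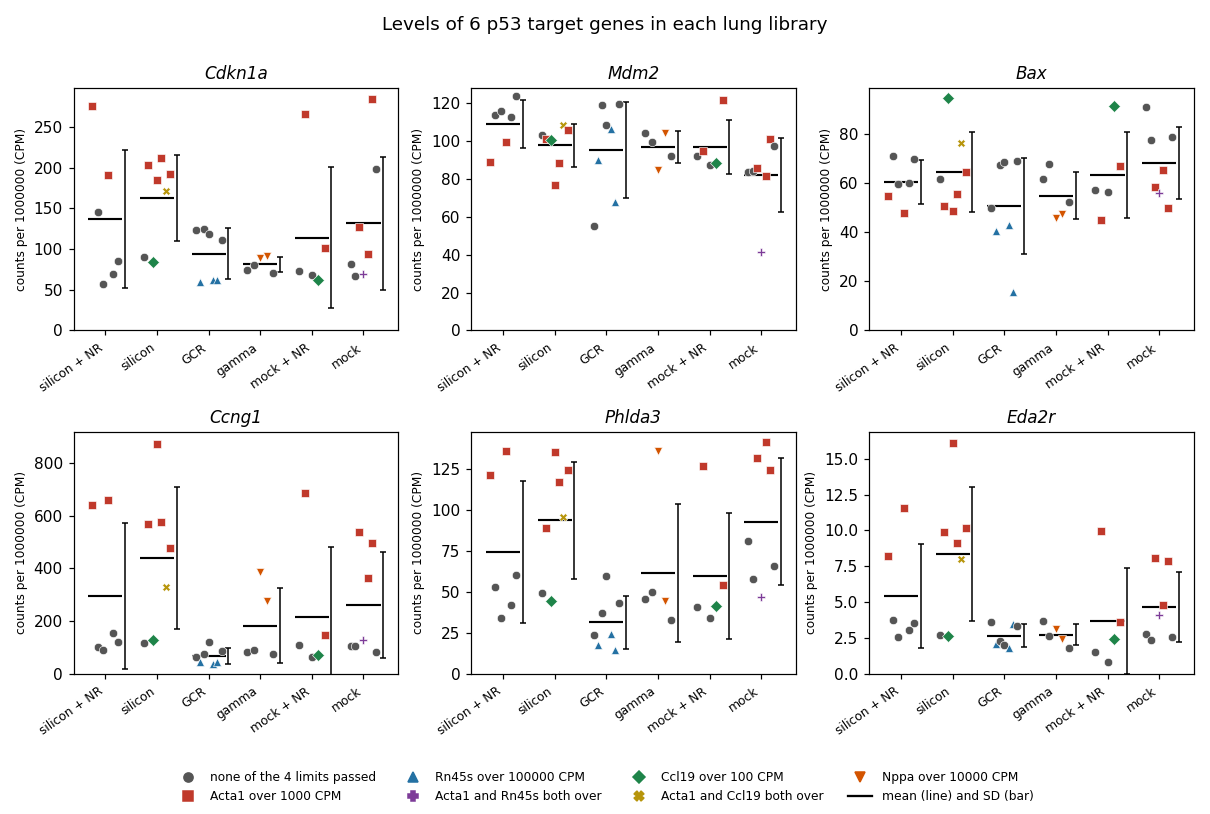
Levels of Cdkn1a, Mdm2, Bax, Ccng1, Phlda3 and Eda2r in CPM (vertical axes) in each library, by group (horizontal axes). Each point is 1 mouse, its shape and colour mark the kind of unusual library, and the line and bar give the mean and SD. The high points of Ccng1 and Eda2r are mostly squares, the libraries over 1000 CPM of Acta1, and the GCR libraries lie low for Ccng1 and Phlda3.

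The response to silicon ions was asked first, in silicon against mock. No member was called, that is, had an adjusted p under 0.05 by edgeR's quasi-likelihood test with Benjamini-Hochberg adjustment over all 16977 genes. None of all genes tested was called either (0%). At an unadjusted p under 0.05 there were 2 members, Psrc1 and Mdm2, where 12.9% of all genes passed. DESeq2 and limma's voom called 0 members, where DESeq2 called 2.5% of all genes and voom 0.00589%. The fold changes were positive for 20 members and negative for 14, with a median log2 fold change of 0.09 against 0.07 over all genes tested.

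Cdkn1a (chr17:29090976-29100727), the main cell cycle arrest gene of the pathway, had 83.9 CPM in the lowest, 185 in the median and 212 in the highest silicon library, against 67.2, 94.5 and 285 CPM in mock. The groups overlapped along most of their range, and the highest library of all was a mock one. The fitted log2 difference was 0.32 (SE 0.37, adjusted p = 0.782 by edgeR). Without the libraries over 1000 CPM of Acta1 its sign turned, to -0.39, with 2 silicon and 3 mock libraries left. Mdm2 (chr10:117688875-117710758) had 76.8, 101.1 and 108 CPM in silicon, against 41.2, 84.2 and 101.0 in mock. The silicon libraries sat higher in the shared range, at a log2 fold change of 0.27 (SE 0.12, unadjusted p = 0.0351, adjusted p = 0.331 by edgeR).

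Psrc1, a spindle-associated gene, had 1.63, 2.95 and 4.72 CPM in silicon, against 1.02, 2.13 and 2.77 CPM in mock. This gave a log2 fold change of 0.73 (SE 0.31, unadjusted p = 0.0267, adjusted p = 0.292 by edgeR), and -0.01 without the libraries over 1000 CPM of Acta1. Eda2r (chrX:97333840-97377216) had 2.68, 9.10 and 16.1 CPM in silicon, against 2.35, 4.11 and 8.09 in mock. In both groups the libraries above 4 CPM were those over 1000 CPM of Acta1. The log2 fold change of 0.88 (SE 0.48, adjusted p = 0.467 by edgeR) was 0.00 without those over 1000 CPM of Acta1. Ccng1, with 116, 476 and 871 CPM in silicon, against 84.7, 130 and 538 in mock, had a log2 fold change of 0.81 that did not pass. Bax, the pore-forming effector of apoptosis, and Phlda3 were near level between the groups, at -0.02 and 0.08. With the muscle-rich libraries left out, Phlda3 turned to -0.56 and did not pass, and the genome stability gene Zfp365 was called, at -1.63. That fit had 2 silicon and 3 mock libraries left and called 4.23% of all genes. The part of muscle content in these values was not tested beyond the values given.

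The exposure to the 5-ion GCR mixture was the comparison in which members were called. In GCR against mock, 11 of 34 members (32.4%) had an adjusted p under 0.05 by edgeR, where 16.6% of all genes tested did. Higher in GCR were 7 members (20.6%, against 8.03% of all genes) and lower were 4 (11.8%, against 8.52%). The median log2 fold change of the members was 0.12, and that of all genes -0.06. The members that rose were the death receptor gene Tnfrsf10b, the secreted stress factor Gdf15, Dcxr, the receptor kinase gene Epha2, the RNA-binding factor gene Zmat3, the nucleotide excision repair gene Xpc and Mdm2. Those that fell were Trp53, Aen, Phlda3 and Ccng1. Cdkn1a, Bax and Eda2r were not among them. Of the 6 lung epithelium markers 4 were positive and 2 negative, and Sftpb at 1.51 and Foxj1 at 1.04 were called by edgeR. The part of lung epithelium in the members' values was not tested.

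All GCR calls of members were lost under 3 alternatives. With the 13 muscle-rich libraries left out, of which mock held 4 and GCR none, none of the 11 was called, and without the 4 over 100000 CPM of Rn45s, of which GCR held 3 and mock 1, none was called. The same was so with muscle and Rn45s levels as covariates. In each of these 3 fits edgeR also called no gene of any kind in GCR against mock. At an unadjusted p under 0.05 by edgeR there were 10, 9 and 3 members. Of all genes, 3235 of 17142, 2748 of 17084 and 1418 of 16977 passed in the same fits. All 11 kept their sign without either kind of library, and 10 did with the covariates, where Ccng1 came to 0.24. Leaving out GCR replicate 2 alone left 1 member called, and leaving out GCR replicate 5, mock replicate 5 or mock replicate 3 left 6, 6 and 7. Of all genes, 2.95%, 6.68%, 9.21% and 8.95% were called in the same fits, in that order.

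Among death receptors, Tnfrsf10b (chr14:69767472-69784411), which encodes the receptor for TRAIL, had 2.64 CPM in the lowest, 5.06 in the median and 9.74 in the highest GCR library, against 2.13, 2.96 and 3.72 CPM in mock. Of the GCR libraries, 6 lay above every mock library and 1 lay within their range. This was a log2 fold change of 1.22 (SE 0.30, adjusted p = 0.0114 by edgeR), and it was 1.29 without the libraries over 1000 CPM of Acta1 and 1.16 without those over 100000 CPM of Rn45s. It was the only member still called whichever single library of either group was left out, but voom did not call it. Fas and Eda2r, the other receptors, had log2 fold changes of 0.22 and -0.63 and did not pass. For Eda2r, with 1.81 to 3.65 CPM in GCR and 2.35 to 8.09 CPM in mock, the sign turned to 0.38 without the libraries over 1000 CPM of Acta1.

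Among stress and metabolism genes, Gdf15 (chr8:70629393-70632456) had 1.16, 1.66 and 6.14 CPM in GCR, against 0.777, 1.008 and 2.10 CPM in mock. GCR replicates 1, 2 and 3, the males of the group, held 4.03 to 6.14 CPM. The other 4, all female, lay within the mock range. The log2 fold change of 1.62 (SE 0.41, adjusted p = 0.0134 by edgeR) was the highest of any member. Dcxr had 150, 263 and 357 CPM in GCR, against 57.4, 166 and 190 CPM in mock, at 1.07 (SE 0.33, adjusted p = 0.0285 by edgeR), and all but 2 GCR libraries exceeded the mock range. Epha2 had 28.9, 43.1 and 47.1 CPM in GCR, against 13.7, 22.7 and 39.2 in mock, at 0.96 (SE 0.28, adjusted p = 0.0224 by edgeR). The sestrin genes Sesn1 and Sesn2, which restrain mTORC1, had negative fold changes of -0.56 and -0.11 and did not pass, the first with an adjusted p of 0.0511 by edgeR.

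Among genes of apoptosis, Zmat3 (chr3:32334792-32366014) had 11.4, 16.7 and 20.8 CPM in GCR, against 9.51, 13.4 and 13.9 CPM in mock. Its highest GCR values, 19.7 to 20.8 CPM, were those of the 3 libraries over 100000 CPM of Rn45s, and the other 4 held 11.4 to 16.7 CPM. The log2 fold change of 0.69 (SE 0.18, adjusted p = 0.015 by edgeR) was 0.30 without the libraries rich in Rn45s. Aen (chr7:78895854-78911209) had 0.527, 2.81 and 15.3 CPM in GCR, against 9.27, 18.8 and 22.7 CPM in mock. GCR replicates 1, 2, 5 and 6 held under 3 CPM, below every mock library, and the other 3 lay within the mock range. Aen had a log2 fold change of -1.39 (SE 0.38, adjusted p = 0.0185 by edgeR).

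Phlda3 (chr1:135766119-135769136) had 14.6, 24.5 and 60.1 CPM in GCR, against 47.2, 81.0 and 141 CPM in mock. Only 1 GCR library reached into the mock range. Phlda3 had a log2 fold change of -1.44 (SE 0.39, adjusted p = 0.0167 by edgeR), and -0.89 without the libraries over 1000 CPM of Acta1. Bax (chr7:45461697-45466898) had 15.7, 49.95 and 69.0 CPM in GCR, against 49.9, 65.1 and 91.0 CPM in mock, with no call at -0.24 (SE 0.17, adjusted p = 0.323 by edgeR). Its GCR libraries over 100000 CPM of Rn45s held 15.7 to 43.0 CPM, and the other 4 held 49.95 to 69.0 CPM.

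Among arrest genes, Ccng1 (chr11:40748552-40755311), which brings a phosphatase to Mdm2, had 37.9, 65.2 and 122 CPM in GCR, against 84.7, 130 and 538 CPM in mock. The overlap consisted of 2 GCR libraries, and the 4 highest mock libraries were the muscle-rich ones. Between the groups the log2 fold change was -1.82 (SE 0.63, adjusted p = 0.0442 by edgeR) and came to -0.33 without the libraries over 1000 CPM of Acta1. Cdkn1a had 59.7, 112 and 124 CPM in GCR, against 67.2, 94.5 and 285 CPM in mock, and was not called at -0.32 (SE 0.37, adjusted p = 0.567 by edgeR). The 3 GCR libraries over 100000 CPM of Rn45s held 59.7 to 62.4 CPM of Cdkn1a and the other 4 held 112 to 124 CPM, with no overlap. In all, 6 members lay lower in those 3 libraries than in all of the other 4, and 2, Zmat3 and the repair nuclease gene Ercc5, lay higher in all. The share of all genes that separated in this way was not counted, so these counts are no result about the members.

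Among the feedback genes, Mdm2 had 55.1, 106 and 120 CPM in GCR, against 41.2, 84.2 and 101.0 CPM in mock, at a log2 fold change of 0.37 (SE 0.12, adjusted p = 0.0349 by edgeR). Trp53 had 9.75, 18.9 and 43.1 CPM in GCR, against 28.1, 34.4 and 43.9 CPM in mock. Of the GCR libraries, 5 lay below every mock library. Trp53 had a log2 fold change of -0.64 (SE 0.22, adjusted p = 0.0481 by edgeR). Ppm1d, which encodes the phosphatase Wip1 that acts on p53, did not pass at 0.12. Of the 6 repair genes only Xpc was called, with 35.7, 44.2 and 75.8 CPM in GCR, against 34.6, 37.1 and 47.0 CPM in mock, at 0.41 (SE 0.14, adjusted p = 0.0453 by edgeR). The highest GCR value was that of replicate 6, and the other 6 GCR libraries held 35.7 to 46.95 CPM. Without GCR replicate 6 the log2 fold change was 0.23 and did not pass.

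**Figure D2:**
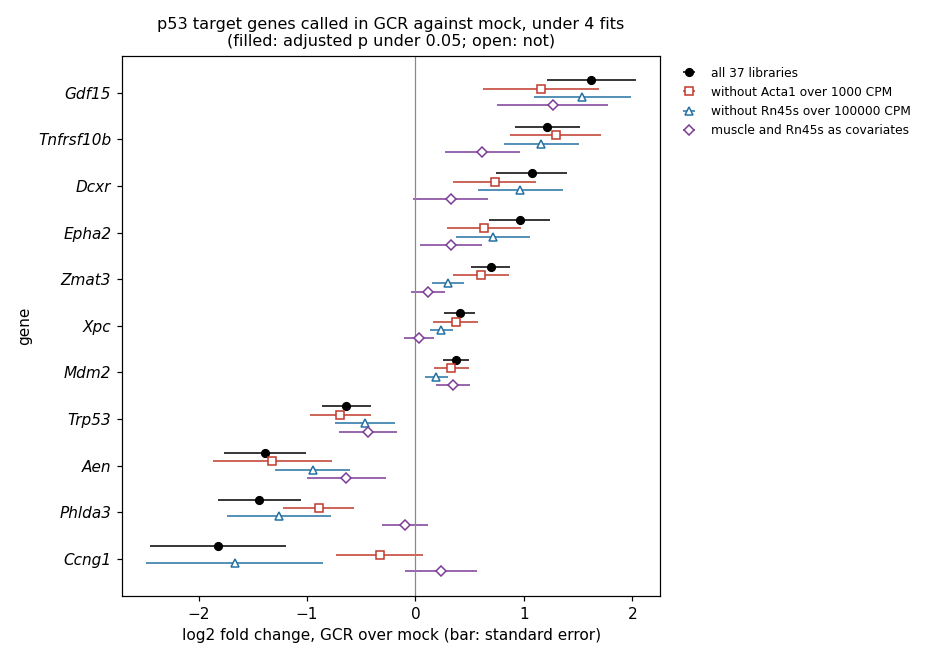
Log2 fold changes in GCR against mock (horizontal axis) of the 11 members called there (rows), under 4 fits, with SE bars. The signs were kept across the fits with libraries left out, while Ccng1 came to -0.33 without the libraries over 1000 CPM of Acta1 and to 0.24 with muscle and Rn45s levels as covariates.

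Whether the ion mixture differed from gamma rays was read from GCR against gamma, neither of which held a library over 1000 CPM of Acta1. Gamma did hold 2 libraries over 10000 CPM of Nppa, and the 6 atrial markers were all lower in GCR (median log2 fold change -3.52, 3 called by edgeR), at a summed 65.9 to 5648 CPM in GCR and 496 to 46700 CPM in gamma. There 2 members of 34 were called by edgeR, both higher in GCR. This share is close to the 5.7% of all genes called in either direction, 2.66% higher and 3.04% lower. Tnfrsf10b had the GCR values above, against 2.85, 3.22, 2.55, 2.75 and 2.85 CPM in gamma. Its gamma libraries were close together, and 6 of 7 GCR libraries lay above all of them. The log2 fold change was 1.26 (SE 0.33, adjusted p = 0.0349 by edgeR). Zmat3 had 12.2, 13.2, 9.95, 12.0 and 12.2 CPM in gamma, and the GCR and gamma ranges overlapped, at 0.72 (SE 0.20, adjusted p = 0.0371 by edgeR). Gdf15 at 1.42, Psrc1 at 1.08 and Sesn1 at -0.67 missed the threshold, with adjusted p of 0.0559, 0.0538 and 0.0521 by edgeR. Without the libraries over 100000 CPM of Rn45s edgeR called no member, 4 had an unadjusted p under 0.05, and Tnfrsf10b was at 1.09 and Zmat3 at 0.23. No member was called without any 1 of GCR replicates 1, 2, 5 and 6 or gamma replicates 1, 3 and 4, while 8 were without GCR replicate 4 or replicate 7 and 5 without gamma replicate 5. The shares of all genes called in those fits are not given here. Both calls were also lost without the libraries over 10000 CPM of Nppa, where Tnfrsf10b was at 1.22 and Zmat3 at 0.67, with only the groups compared, at 1.27 and 0.72, and by voom, at 0.55 and 0.32. GCR against mock and GCR against gamma share the GCR mice.

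**Figure D3:**
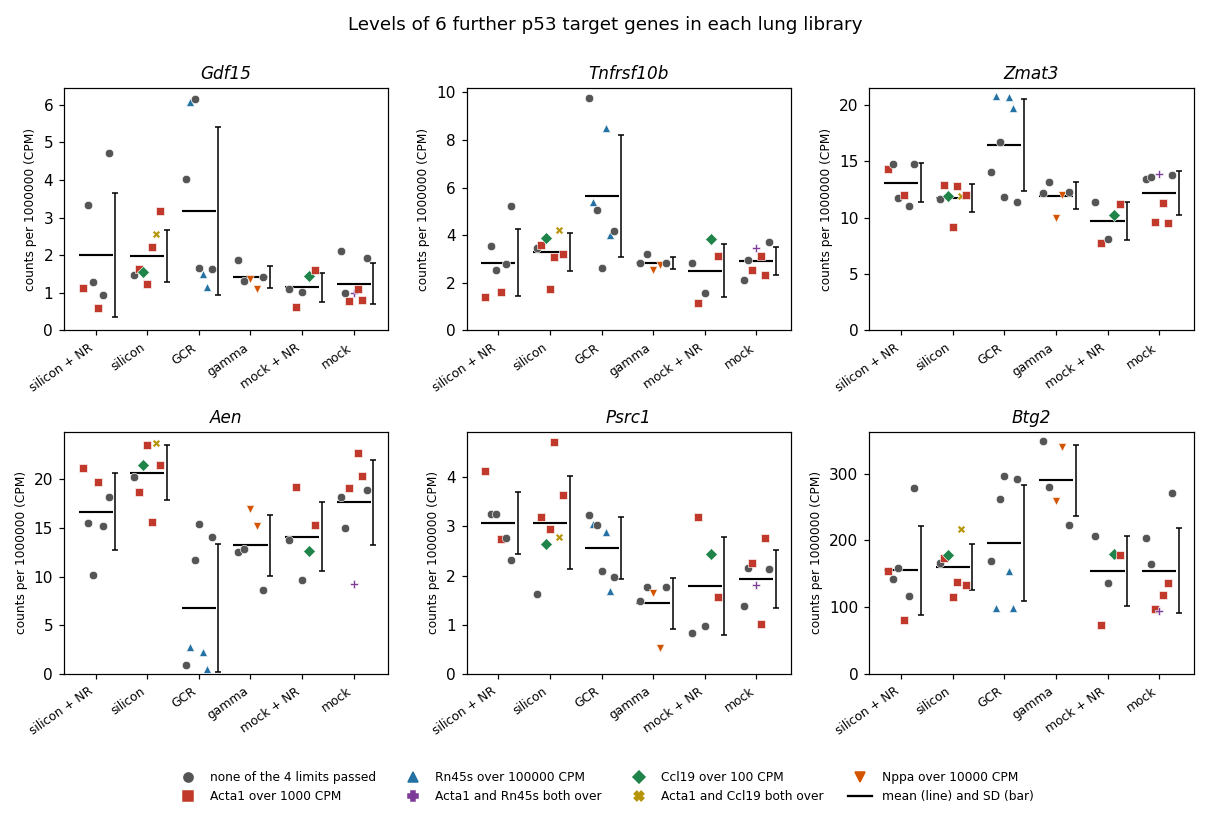
Levels of Gdf15, Tnfrsf10b, Zmat3, Aen, Psrc1 and Btg2 in CPM (vertical axes) in each library, by group (horizontal axes). Points are mice, shapes mark the kinds of unusual library, and lines and bars give mean and SD. GCR holds the highest libraries of Gdf15, Tnfrsf10b and Zmat3 and the lowest of Aen, and gamma the highest mean of Btg2.

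Gamma rays were compared with the same mock mice. No member was called by edgeR in gamma against mock, where 0.0295% of all genes were. At an unadjusted p under 0.05 there was 1 member, Btg2, and DESeq2 and voom each called 1, also Btg2, where they called 1.53% and 1.4% of all genes. Btg2 (chr1:134075170-134079120) had 349, 279, 258, 339 and 224 CPM in gamma, against 93.8, 136 and 271 CPM in the lowest, median and highest mock library. The highest mock library exceeded the lower 2 gamma libraries, and the other 6 mock libraries lay below all of gamma. The 4 muscle-rich mock libraries were the lowest, at 93.8 to 136 CPM against 165 to 271 CPM in the other 3, and gamma held no such library. Its log2 fold change was 0.92 (SE 0.24, unadjusted p = 0.000578, adjusted p = 0.239 by edgeR), with adjusted p of 0.0196 by DESeq2 and 0.0162 by voom. It was 0.53 by edgeR without the libraries over 1000 CPM of Acta1, and did not pass.

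None of the fixed targets passed after gamma rays. Cdkn1a had 73.8, 80.7, 89.5, 91.5 and 70.4 CPM in gamma, all within the mock range and below its median. Its log2 fold change was -0.69 (SE 0.41, adjusted p = 0.609 by edgeR). Mdm2 had 104, 99.3, 84.5, 104 and 92.1 CPM in gamma and a log2 fold change of 0.24, and Bax, Phlda3 and Eda2r had -0.29, -0.61 and -0.82. None of these passed. Phlda3 was at 136 CPM in gamma replicate 3, one of the libraries rich in Nppa, and at 32.8 to 49.8 CPM in the other 4.

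The effect of silicon in mice given NR was read from silicon + NR against mock + NR. No member was called by edgeR, and neither was any of all genes (0%). At an unadjusted p under 0.05 there was 1 member, Psrc1, where 2.16% of all genes passed, and DESeq2 and voom called 0 members. Fold changes were positive for 27 of the 34 members, against 48.8% of all genes tested, and the medians were 0.12 for the members and -0.01 for all genes. With 1 library left out, the members' median ran from 0.023 (mock + NR replicate 2) to 0.15 (mock + NR replicate 5). It was 0.025 without silicon + NR replicate 6. The 8 skeletal muscle and 7 squamous markers were also all positive (medians 0.58 and 1.56, 0 called), and their part was not tested. Psrc1 had 2.31, 3.003 and 4.13 CPM in the lowest, median and highest silicon + NR library, against 0.829, 3.18, 0.977, 2.43 and 1.57 CPM in mock + NR. Its log2 fold change was 0.77 (SE 0.35, unadjusted p = 0.0356, adjusted p = 1 by edgeR). Gdf15 had 0.75, Perp 0.67, Eda2r 0.55, Ccng1 0.44, Zmat3 0.40, Phlda3 0.30, Cdkn1a 0.24, Mdm2 0.11 and Bax -0.08, of which none passed.

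The silicon comparisons with and without NR share no mice, so their signs can be set side by side. Within a comparison all members rest on the same libraries, so their signs are not independent, and the counts were not tested. Of the 34 members, 15 (44.1%) were positive in both, where 28% of all genes were, 2 (5.88%) were negative in both, where 19.6% of all genes were, and 17 (50%) had opposite signs, where 52.4% did. Psrc1 and Gdf15 had much the same value in each, at 0.77 and 0.73 for Psrc1 and 0.75 and 0.74 for Gdf15 with and without NR. In both genes the value without NR turned to the other sign when the libraries over 1000 CPM of Acta1 were left out, at -0.01 and -0.44.

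NR alone was compared in unirradiated mice. In mock + NR against mock no member was called by edgeR (0% of all genes), 4 had an unadjusted p under 0.05 (16.9% of all genes), DESeq2 called 0 and voom called 3, where they called 3.48% and 5.85% of all genes. Dcxr had 268, 113, 399, 275 and 230 CPM in mock + NR, against 57.4, 166 and 190 CPM in mock. Of the mock + NR libraries, 4 lay above all mock libraries. The muscle-rich ones held 113 and 230 CPM, so that 1 of them was among the 4. Its log2 fold change was 1.03 (SE 0.36, adjusted p = 0.132 by edgeR). Mdm2 at 0.36, the translesion polymerase gene Polk at 0.44 and Zfp365 at -0.67 had adjusted p of 0.144, 0.209 and 0.214 by edgeR. Voom called Dcxr, Mdm2 and Polk. In the same comparison the 5 endothelial markers were all negative (median -1.705, all at an unadjusted p under 0.05 and 0 called by edgeR). Of the 6 lung epithelium markers 3 were positive and 3 negative, from -2.455 for Sftpc to 1.18 for Foxj1. The part of tissue content in the members' values was not tested. Without the libraries over 1000 CPM of Acta1, Zfp365 was called at -1.496. That fit had 3 libraries left in each group and called 2.48% of all genes.

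In irradiated mice, silicon + NR against silicon gave no called member by edgeR (0% of all genes), 1 at an unadjusted p under 0.05 (12.8% of all genes) and none by DESeq2, which called 2.08% of all genes. Voom with sample weights called 10 members, 4 higher and 6 lower, where it called 24.8% of all genes. The member with the unadjusted p was Trp53, with 21.7, 25.7 and 33.8 CPM in silicon + NR, against 27.2, 31.5 and 86.4 CPM in silicon, at -0.62 (SE 0.23, adjusted p = 0.227 by edgeR). The highest silicon values of Trp53, 86.4 and 66.4 CPM, were those of replicates 3 and 6, the libraries over 100 CPM of Ccl19. The interaction of NR with silicon gave no called member by edgeR (0% of all genes), none at an unadjusted p under 0.05 (9.95% of all genes), and 0 by DESeq2 and by voom, so no difference in the silicon response with NR was detected for any member at this number of mice. Without the libraries over 1000 CPM of Acta1, Zfp365 was called in the interaction. There 2 silicon, 4 silicon + NR, 3 mock and 3 mock + NR libraries were left.

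Females and males were set against each other across the groups, with a sex term shared by all of them. A sex difference within a single group, such as that of Gdf15 in GCR, was not tested. No member was called by edgeR (0.0589% of all genes were), none had an unadjusted p under 0.05 (3.15% of all genes), and DESeq2 and voom called 0. The members' log2 fold changes lay between -0.18 and 0.26, the highest that of the polo-like kinase gene Plk2, against a range of -1.82 to 1.62 in GCR against mock.

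**Figure D4:**
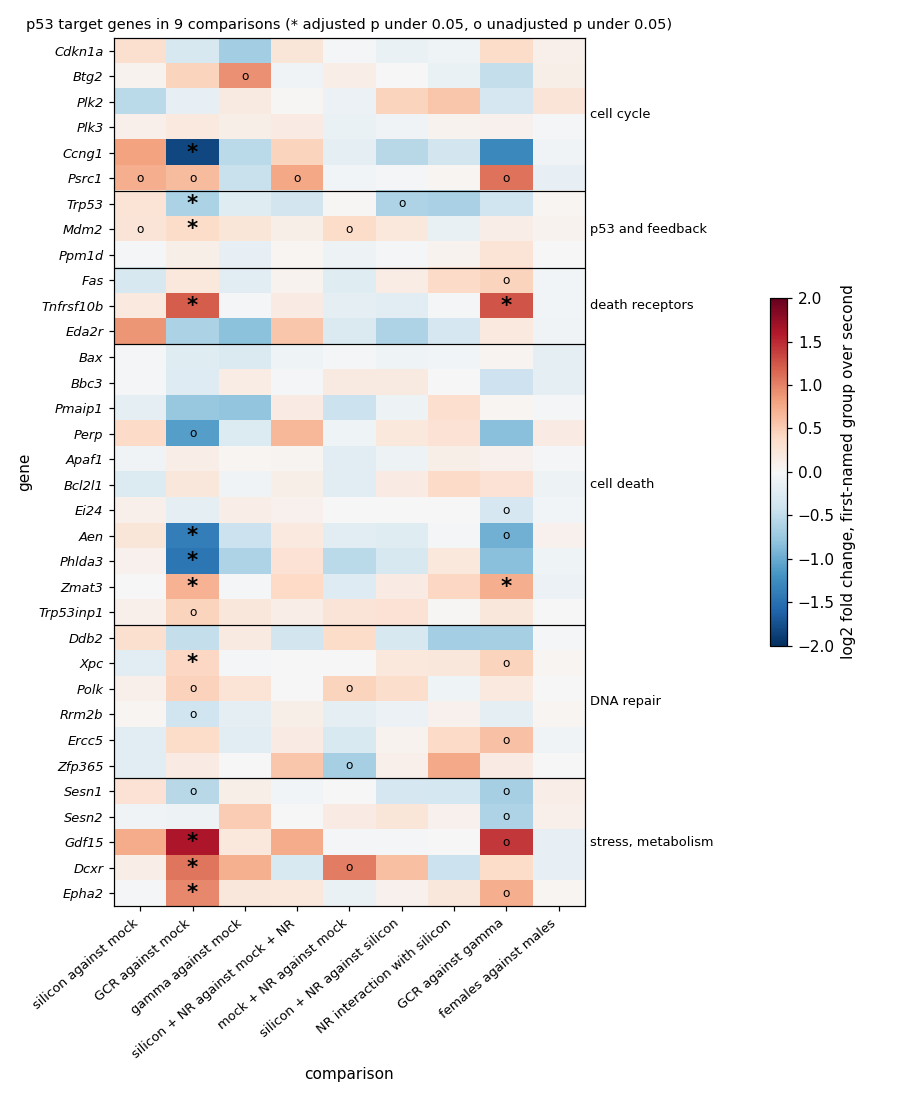
Log2 fold changes of the 34 members (rows, by role) in the 9 comparisons (columns), as colours. A star marks an adjusted p under 0.05 and a circle an unadjusted p under 0.05, both by edgeR. Stars stand only in the GCR against mock column (11) and the GCR against gamma column (2).

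Other genes around p53 were described by 3 further lists. Of 25 tested regulators of p53, 5 were called higher and 2 lower in GCR against mock, with a median log2 fold change of 0.38. Of all genes 8.03% were called higher and 8.52% lower there, with a median of -0.06. Usp7, which removes ubiquitin from Mdm2 and p53, was at 0.72 (adjusted p = 0.0108 by edgeR), and the coactivator gene Ep300 was at 0.62, Trp53bp2 at 0.72, the p53 relative Trp73 at 1.10 and the ubiquitin ligase gene Huwe1 at 0.53. The kinase gene Hipk2 was at -0.98, and Trp63, the p53 relative of basal and squamous epithelium, at -3.87. Trp63 is also a squamous marker, and the summed level of 7 such markers ran from 2.64 to 25.6 CPM in GCR, against 2.44 to 1543 CPM in mock, with the defining Dsg3 and Krt6a at 0 in 15 and 16 of the 37 libraries. The part of squamous tissue in the Trp63 value was not tested.

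Of 41 further p53 targets, 5 were called higher and 2 lower in GCR against mock, with a median of -0.11. These 7 of 41 are a share close to the 16.6% of all genes called there. Those that rose were Thbs1 at 1.45, Notch1 at 0.96, Rps27l at 0.63, Cpt1c at 0.50 and Fdxr at 0.34, and those that fell were Ptp4a3 at -2.07 and Ak1, an adenylate kinase abundant in skeletal muscle, at -2.42. In GCR against gamma, Usp7, Ep300, Rps27l and Notch1 were among the genes that rose, at 0.74, 0.66, 0.65 and 0.93, and Hipk2 fell, at -1.10. As with the members, neither list held a call in GCR against mock without the libraries over 1000 CPM of Acta1 or without those over 100000 CPM of Rn45s.

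The 29 cell cycle genes that p53 is known to lower through p21 were called in no silicon, gamma or NR comparison by edgeR. In silicon against mock all 29 had positive fold changes, with a median of 0.97, 20 of them at an unadjusted p under 0.05 and 0 called by edgeR, DESeq2 or voom. The 7 lymphoid markers were all positive there as well (median 2.33, all at an unadjusted p under 0.05), with a summed level of 43.7 to 2189 CPM in silicon and 36.03 to 204 CPM in mock, and the 5 endothelial markers all negative (median -1.503). Without the libraries over 100 CPM of Ccl19 the cell cycle genes had a median of 0.66, with 26 of 29 positive and 1 at an unadjusted p under 0.05. In gamma against mock 28 of 29 were negative, with a median of -0.76, 5 at an unadjusted p under 0.05 and 0 called by edgeR, DESeq2 or voom. In silicon + NR against silicon 28 of 29 were negative, with a median of -0.75, 8 at an unadjusted p under 0.05, 0 called by edgeR or DESeq2 and 25 by voom (24 lower and 1 higher). All 7 lymphoid markers were negative there (median -3.71, all at an unadjusted p under 0.05), with a summed level of 11.4 to 121 CPM in silicon + NR and 43.7 to 2189 CPM in silicon. The median of the cell cycle genes without the libraries over 100 CPM of Ccl19 was -0.37, with 1 at an unadjusted p under 0.05. The part of lymphoid tissue in these values was not tested beyond them. In silicon + NR against mock + NR they were divided, 15 positive and 14 negative, with a median of 0.00. In GCR against mock 22 of 29 were negative, with a median of -0.23, 2 at an unadjusted p under 0.05, and edgeR called 0 of them and DESeq2 and voom 1 each, where they called 16.6%, 22.6% and 8.93% of all genes. In GCR against gamma the mitotic kinesin gene Kif23 rose, at 1.20 (adjusted p = 0.0421 by edgeR). The silicon and gamma comparisons share the mock mice.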

How the data were processed

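Per the labels' protocols, lung RNA was extracted with Trizol, converted to cDNA with SMART-seq v4 and made into libraries with Nextera XT, an unstranded method. The submitters' processing notes name HTSeq 0.13.5, STAR 2.5.2, Trimmomatic 0.36, FastQC 0.11.4 and MultiQC 1.12 and build mm10. No source used here gives the role of each tool or the annotation. The authors deposited raw counts, whole numbers of reads for each gene symbol. Counts were not collapsed by molecular identifiers.

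Groups and sex came from the labels, and replicate numbers, in accession order, only name mice. The labels give each library its own ear tag. Of 98 pairs of libraries of 1 group, none matched within counting error (chi-square over degrees of freedom at least 19.2), so no library was counted as a copy. CPM was computed from counts and library totals. Genes were tested with edgeR 4.0.16 in R 4.3.3 (filterByExpr, TMM, quasi-likelihood test, group and sex as terms, all 37 libraries), with Benjamini-Hochberg adjustment over 16977 genes and a threshold of 0.05. Fold changes rest on TMM scaling and need not equal ratios of CPM. The test was checked on simulated counts for GCR against mock. It called 61 of 100 genes changed by a log2 of 1 and 91 of 100 changed by 2, with 9 false calls. The simulated libraries did not differ in tissue content, so the check cannot bear on calls that depend on it. Alternatives were RLE size factors, DESeq2 1.42.0, a fit without the count filter, voom with quality weights (limma 3.58.1), no sex term, only the groups compared, each library left out, libraries over the Acta1, Rn45s, Ccl19 or Nppa limits left out, and muscle and Rn45s covariates.

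The members, the other lists, the limits and the alternatives were chosen with earlier results of these data known. Values are given for members called in at least 1 comparison and for Cdkn1a, Mdm2, Phlda3, Eda2r and Bax; Psrc1, Btg2, Perp and others outside that rule were named after their values were seen. Gene coordinates are those of GENCODE on GRCm38, and promoter windows those of RefSeq on GRCm38.p6.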

Additional observations from a re-analysis of the deposited data

Results flagged for a closer look

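Among the 34 members in 6 groups, 204 sets of libraries were examined for a single library far from the rest of its group, and 17 (8.33%) held one. Chance flags about 1 in 20 such sets. Mock + NR replicate 2, a muscle-rich library, stood high for Cdkn1a at 266.4 CPM, Ccng1 at 685.0 CPM and Phlda3 at 126.9 CPM. Mock replicate 4, which exceeded both the Acta1 and the Rn45s limit, stood low for Mdm2 at 41.24 CPM, Ddb2 at 2.742 CPM and Sesn1 at 24.13 CPM and high for Ercc5 at 44.04 CPM. Silicon replicate 4, also muscle-rich, stood low for Zmat3 at 9.167 CPM and Polk at 11.93 CPM. Of the libraries rich in Nppa, gamma replicate 3 stood high for Phlda3 at 135.7 CPM and low for Polk at 17.21 CPM, and gamma replicate 4 stood low for Psrc1 at 0.5316 CPM. GCR replicate 6 stood high for Xpc at 75.8 CPM, and GCR replicate 1 low for Polk at 14.52 CPM. Mdm2 was high in mock + NR replicate 5 at 121.5 CPM, Rrm2b low in silicon replicate 1 at 14.97 CPM, and Zfp365 low in silicon + NR replicate 1 at 7.185 CPM. The part of tissue content in these values was not tested.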

How the results depend on the processing

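No paired analysis was possible because the labels give no replicate numbers. The count of called members in GCR against mock was 11, where 16.6% of all genes were called. The count was 7 without the count filter, with voom and with only the groups compared, where 10.9%, 8.93% and 5.78% were. DESeq2 called 14 members and 22.6% of all genes, and the fit without the Nppa libraries 13 and 19.2%. The count and the share were 0 without libraries over 1000 CPM of Acta1 and without libraries over 100000 CPM of Rn45s. Both were 0 with muscle and Rn45s covariates too. With 1 library left out the count ran from 1 to 14 and the share from 2.95% to 24.1%. In GCR against gamma, 2 became 7 with DESeq2 and 0 with voom, with only the groups compared, without libraries over the Acta1, Rn45s or Nppa limit and with covariates, and ran from 0 to 8 with 1 library left out. The shares of all genes called in these GCR against gamma fits are not given here. In gamma against mock, 0 became 1 with DESeq2 and 1 with voom, where 1.53% and 1.4% of all genes were called. In mock + NR against mock, 0 became 3 with voom and 1 without the Acta1 libraries, where 5.85% and 2.48% were. In silicon + NR against silicon, 0 became 10 with voom, where 24.8% were. In silicon against mock and in the NR interaction, 0 became 1 (Zfp365, at -1.63 and 2.71) without the Acta1 libraries. In that silicon against mock fit 4.23% of all genes were called. Counts of 0 stayed at 0 in the other fits, each library left out included. The cause of these changes was not tested, beyond the fewer samples of the fits that leave libraries out.

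Signs turned as follows, with no call on either side unless said. With covariates, Ccng1 (called in GCR against mock) came to 0.24, Cdkn1a to -0.022 in silicon and 0.51 in GCR, Phlda3 to -0.24 in silicon and 0.12 in gamma, Bax to 0.072 in silicon, and Eda2r to 0.59 in GCR and 0.30 in gamma, each against mock. Without the Acta1 libraries, silicon against mock came to -0.39 for Cdkn1a, -0.56 for Phlda3, -0.0051 for Psrc1 and -0.44 for Gdf15, and Eda2r to 0.38 in GCR and 0.17 in gamma against mock. Phlda3 in silicon against mock was -0.20 with only the groups compared and -0.00783 without the Rn45s libraries. In silicon + NR against mock + NR, voom gave -0.088 for Cdkn1a and -0.043 for Phlda3, and Bax was 0.027 without the libraries over 100 CPM of Ccl19. With 1 library left out, Phlda3 ran from -0.063 to 0.26 and Bax from -0.099 to 0.046 in silicon against mock, Cdkn1a from -0.49 to 0.017 in GCR against mock, and Cdkn1a from -0.18 to 0.89, Ccng1 from -0.010 to 1.66 and Bax from -0.17 to 0.0275 in silicon + NR against mock + NR. Depth limits the low members most: Gdf15, Psrc1, Tnfrsf10b and Eda2r have medians of 1.44 to 3.36 CPM.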
